A study of Mus musculus with 12 samples.

Results

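The genes described here are the mouse glutamate receptor genes, the vesicular glutamate transporter genes and a set of auxiliary subunit genes. They were chosen by gene symbol only, with no use of measured values, and 33 of the 23079 rows of the count table are described: 4 AMPA, 5 kainate and 7 NMDA receptor genes, genes of delta and metabotropic receptors, 3 vesicular transporters and 6 auxiliary subunits. A filter on low counts left 14732 genes for testing, among them 32 of these 33, the exception being Grm6. Glutamate is the main excitatory transmitter of the brain. A vesicular transporter loads it into synaptic vesicles, and after release it opens ionotropic receptors, which are ion channels, or activates metabotropic receptors, which signal through G proteins. The ionotropic families are named after agonists, as AMPA, kainate and NMDA receptors, with a related delta family, and auxiliary proteins set how the channels reach the membrane and how fast they open and close. Neurons of the pontine nucleus are glutamatergic: they receive cortical input and send mossy fibres to the cerebellum, and in many brain pathways the vesicular transporters and the receptor subunits are exchanged around and after birth.

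RNA was sequenced from genetically labelled pontine nucleus cells of CD-1 mouse embryos at E18.5, shortly before birth, sorted by fluorescence at 2000 cells per replicate, with RNA of 1000 cell equivalents amplified before library preparation. There were 12 libraries in 3 groups. Math1tdTomato (n = 6), the references, carried a tdTomato red fluorescent label tied to Math1, a transcription factor gene expressed in the rhombic lip, the origin of pontine neurons. The columns of 3 references name creErt2, a Cre recombinase that acts only with tamoxifen, and those of the other 3 name tdT; they are called creErt2 and tdT references here. Hoxa5tdTomato (n = 3) carried the same red protein tied to Hoxa5, a homeobox gene of hindbrain patterning, in columns that name cre. Math1Hoxa5-IRES-GFP (n = 3) is called driven here after its columns, which name Cag and lsl Hoxa5 together with Math1, the usual abbreviations for a strong general promoter and a stop cassette that Cre removes. Which marker and gate sorted the cells of each group, and whether Hoxa5tdTomato cells also descend from Math1 cells, is not stated in the labels. The labels do not say that replicates are separate embryos or litters, so that p values measure only the spread between these samples, which may be technical.

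Total counts were 9973484 to 13302076 in the creErt2 reference and Hoxa5tdTomato libraries and 22355961 to 29820776 in the tdT reference and driven libraries. These are called set 1 and set 2 here. The pairing rests on depth and, for set 1, on cre in the column names, and set and depth cannot be told apart. The driven columns share the word Math1 with both kinds of reference, so that set 2 is paired by depth only. Hoxa5 itself stood at 119 to 222 CPM (counts scaled to a common library size) in Hoxa5tdTomato and at 4.35 to 32.2 CPM in the references. In the libraries labelled driven it was at 9.73, 16.8 and 82.0 CPM, so that only replicate 3 lay above the references, and every direction given for this group rests on its label. Driven replicate 3 also stood apart with the fewest genes with a count (13074, against 14779 to 16290 elsewhere). Correlations across genes were 0.860 to 0.914 within the whole driven group, against 0.926 or more within the other groups. Fold changes of the driven group against all references are therefore given with and without driven replicate 3. Leaving it out also removes the only driven library with Hoxa5 above the references. Barhl1, a transcription factor gene of rhombic lip neurons, was at 179.7 to 201 CPM in creErt2 references, 105 to 184 in tdT references, 156 to 166 in Hoxa5tdTomato and 121 to 345 in driven libraries. The 12 pontine and rhombic lip genes, Barhl1 among them, summed to 3636 to 4173 CPM in Hoxa5tdTomato, below every reference (5780 to 7915). In driven libraries they summed to 5130 to 8336.5 CPM. Their median log2 change against all references was -0.77 in Hoxa5tdTomato and 0.42 in the driven group. Among markers of other neurons, the 6 serotonergic genes summed to 13.9 to 35.7 CPM per library, nearly all from Slc18a2, with Fev at 0 in every library. The 5 cholinergic genes summed to 70.5 to 98.4 CPM in the references and 94.7 to 110 in Hoxa5tdTomato. In driven replicates 1, 2 and 3 they summed to 169, 232 and 72.5 CPM. The 11 GABAergic and glycinergic genes summed to 195 to 472 CPM, highest in driven replicate 3, and most came from Gad2, at 107.8 to 323 CPM; Gad1, also a gene of GABA synthesis, had no count in the driven libraries and 0.0357 to 3.80 CPM elsewhere. The 4 noradrenergic genes summed to 2.49 to 5.34 CPM in creErt2 references and 15.7 to 21.9 in tdT references. In Hoxa5tdTomato they summed to 1.16 to 3.11 CPM and in driven libraries to 3.59 to 15.4. No cholinergic or noradrenergic gene was called against all references. Of all genes 1.73% were called in Hoxa5tdTomato and 1.84% in the driven group. A lower count in such bulk samples may mean fewer cells of a type or less RNA per cell, which cannot be told apart.

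Among the vesicular transporters the libraries held almost only Slc17a6, the transporter gene also known as VGLUT2. To compare genes, levels are given as counts scaled by library and by the deposited gene length (RPKM). Slc17a6 (chromosome 7, 51621830 to 51671126, build GRCm38, which is mm10) had a mean of 84.5 RPKM over the 12 libraries, the second highest of the 33 genes and at percentile 97.2 of all tested genes. In CPM it was at 365, 332 and 286 in the creErt2 references, 476, 384 and 367 in the tdT references, 307, 304 and 299.9 in Hoxa5tdTomato and 417, 506 and 336 in the driven libraries. Hoxa5tdTomato lay within the creErt2 references, and the driven libraries spread around the tdT references. The change was -0.28 ± 0.16 (log2, ± standard error) in Hoxa5tdTomato and 0.19 ± 0.16 in the driven group, with edgeR adjusted p values of 0.471 and 0.589; without driven replicate 3 the latter change was 0.33 ± 0.16 (0.364). Slc17a7, which encodes VGLUT1, the main transporter of many mature cortical and cerebellar afferent synapses, was at 0, 0.444 and 0.0906 CPM in creErt2 references, 0.606, 0.453 and 0 in tdT references, 0.267, 0.808 and 0.366 in Hoxa5tdTomato and 0.559, 1.08 and 0 in driven libraries. Its 12 libraries together held 88 counts, 3 of them none, and 3 counts correspond to 0.107 to 0.274 CPM depending on the library, so that its changes (0.82 ± 1.46 and 1.00 ± 1.44, the latter 1.57 ± 1.47 without driven replicate 3) were not detectable at this depth. Slc17a8, the VGLUT3 gene found in smaller sets of neurons, ranged from 0 to 2.96 CPM on 224 counts, with no group apart from another. Slc17a6 accounted for at least 98.8% of the RPKM of the 3 transporters in every library.

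**Figure D1:**
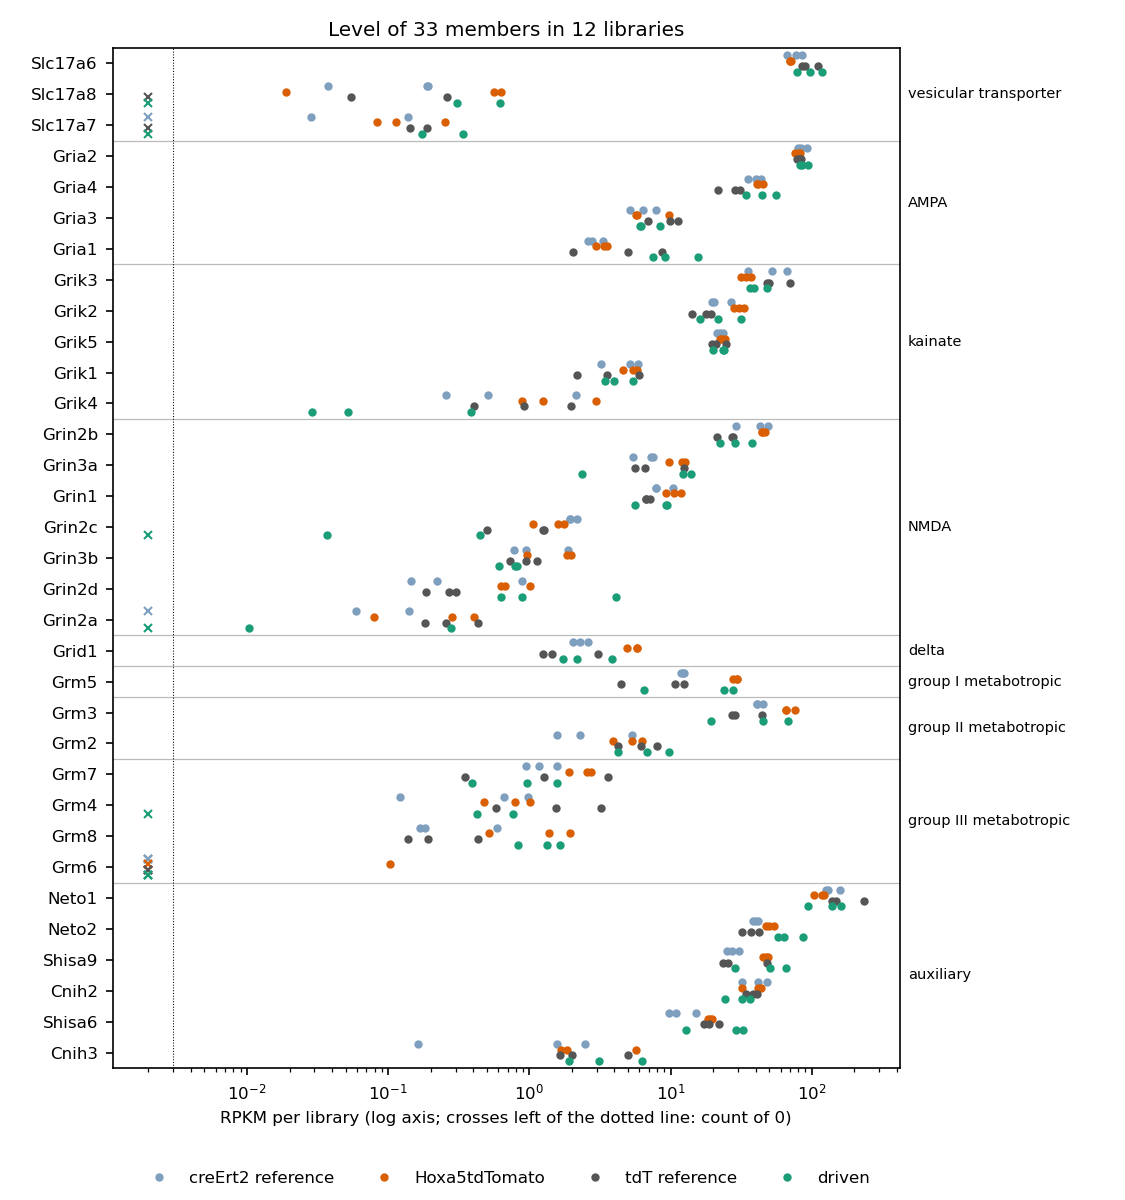
Level of each of the 33 genes in RPKM (log axis) in every library, grouped by family and coloured by column-name group, with crosses for a count of 0. Neto1, Slc17a6 and Gria2 lie furthest to the right, and Slc17a7, Slc17a8, Grin2a and Grm6 furthest to the left with libraries at 0.

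The order of the 33 levels was led by Neto1, an auxiliary subunit of kainate and NMDA receptors, at 139 RPKM, before Slc17a6 and the AMPA subunit Gria2 at 83.4 RPKM. Neto2 (49.2 RPKM), Grm3 (47.3), Grik3 (45.6), Shisa9 (38.7), Gria4 (38.6), Cnih2 (37.1) and Grin2b (35.03) completed the upper 10. Compared within each library, Neto1 was above Slc17a6 and Gria2 above Neto2 in 12 of 12, while each other pair of neighbours among the 10 changed places between libraries, so that those steps are not resolved. At the other end, Grin2d, Grm8, Slc17a8, Grin2a, Slc17a7 and Grm6 had means of 0.828, 0.776, 0.239, 0.177, 0.122 and 0.00862 RPKM. Grm6, whose receptor is known from retinal bipolar cells, had 6 counts in a single Hoxa5tdTomato library and none elsewhere. Some of the sequence of Grin2a is repeated in other genes: 11.8% of its runs of 40 bases occurred elsewhere in the transcripts, so that its low count is uncertain, against at most 1.93% for any other member.

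The direction of all 32 tested genes is shown first, before the single genes. Against all references, 1 of 32 was called in Hoxa5tdTomato (Grm5, higher) at an adjusted p under 0.05 in the quasi-likelihood test of edgeR, where 1.73% of all 14732 genes were called. In the driven group 1 of 32 was called (Neto2, higher), where 1.84% of all genes were. Between Hoxa5tdTomato and the driven group edgeR called 0 of 32 (3.35% of all genes), with Gria1 lowest at an adjusted p of 0.0515. At an unadjusted p under 0.05 there were 7 of 32 (21.9%), against 22.1% of all genes. Of these 7, 4 were higher and 3 lower in Hoxa5tdTomato. The Wald test of DESeq2 called 3 of 32, where it called 8.71% of all genes. That comparison runs across both sets, so that set and group cannot be told apart in it. Fold changes of the 32 leaned to the higher side: the median was 0.45 in Hoxa5tdTomato with 24 of 32 above 0, and 0.21 in the driven group with 20 of 32 above 0, while the medians of all tested genes were 0.0049 and -0.0018. Both comparisons share the 6 references. At an unadjusted p under 0.05, 10 of 32 (31.25%) passed in Hoxa5tdTomato and also 10 in the driven group, against 14.6% and 16.7% of all genes.

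Against the references of the same set alone, within a fit of 4 groups, 0 of 32 were called in Hoxa5tdTomato, where 0.557% of all genes were. At an unadjusted p under 0.05 there were 7 (21.9%), against 8.91% of all genes, and DESeq2 called 0, where it called 1.63% of all genes. In the driven group 1 was called (Neto2), where 0.862% of all genes were. Between both kinds of reference 0 of 32 were called by edgeR, where 1.34% of all genes were, and 0 by DESeq2, where 3.61% were. At an unadjusted p under 0.05 in edgeR there were 3 (9.38%), against 12.9% of all genes. The difference between the within-set changes of both groups was called for 0 of 32 by edgeR (0% of all genes) and by DESeq2 (0.447% of all genes). In edgeR 3 of 32 (9.38%) had an unadjusted p under 0.05, against 8.02% of all genes. The lowest adjusted p of this difference among the 32 was 0.585 in edgeR, so no member was shown to change by a different amount in both groups.

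These fits share 1 estimate of spread across all libraries, and the spread was widest in the driven group. Fitted on the 6 libraries of set 1 alone, 9 of the 30 genes then tested were called (30%), 8 higher and 1 lower, where 7.19% of all genes were called. On the 6 libraries of set 2 alone edgeR called 0 of 32, where 0.0746% of all genes were called, with 4 of 32 at an unadjusted p under 0.05, against 6.32% of all genes. References of both kinds fitted alone differed in 3 of 31 (Grin2b and Gria4 higher in creErt2 references, Shisa6 lower), where 5.67% of all genes did. Without driven replicate 3 the calls against all references rose to 6 of 32 in Hoxa5tdTomato (4.86% of all genes) and 6 of 32 in the driven group (2.24%), and within sets to 2 (2.43%) and 3 (2.43%). These fits lack the only driven library with Hoxa5 above the references. The count of calls thus differed with the libraries in the fit, and values by library are given below.

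**Figure D2:**
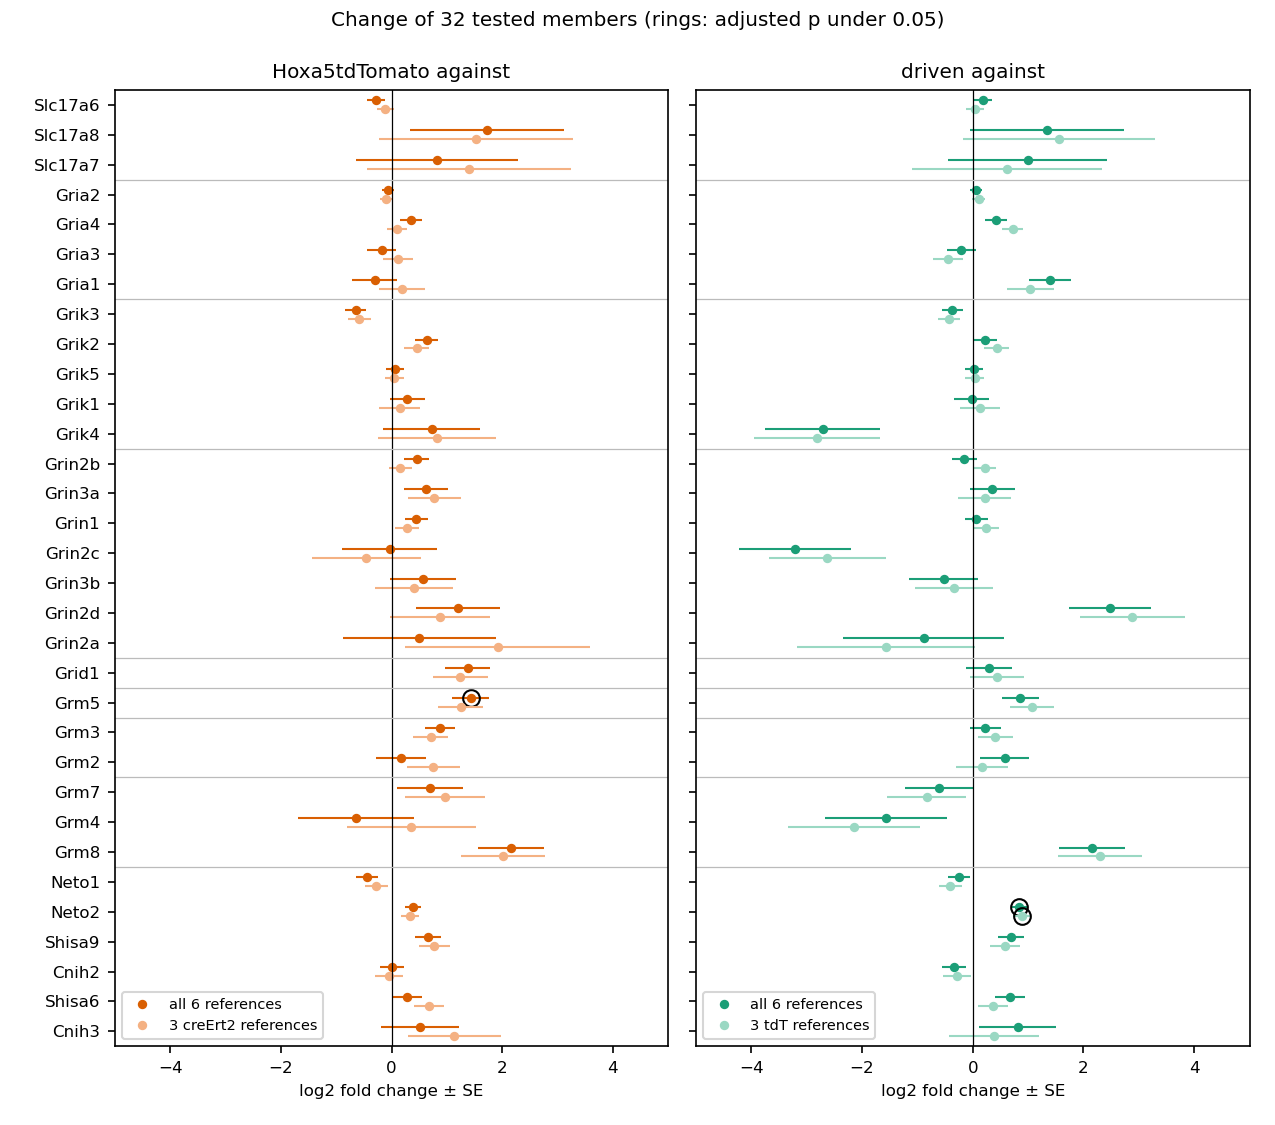
Log2 fold change ± standard error of the 32 tested genes, for Hoxa5tdTomato (left) and the driven group (right), against all 6 references (dark) and against the 3 references of the same set (light); rings mark an adjusted p under 0.05. Rings stand at Grm5 on the left and at Neto2 on the right, and the bars are widest for genes of low count such as Slc17a7 and Grin2a.

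Values that do not overlap between groups give a view that needs no model. All 3 Hoxa5tdTomato libraries lay above all 6 references for Grid1, Grik2, Grm3, Grm5 and Neto2 and below them for Neto1, which is 6 of 32 (18.75%), where 14.1% of all genes did not overlap. The driven libraries lay above the references for Grm8 and Neto2 and below them for Grin2c, which is 3 of 32 (9.38%), where 6.37% of all genes did not. Within set 1 the count was 11 of 32 (34.4%, against 25.3% of all genes), 9 above and 2 below, and within set 2 it was 6 of 32 (18.75%, against 12.5%), 4 above and 2 below.

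The metabotropic receptors of group I couple to phospholipase C and calcium release. Grm5, a gene of this group (chromosome 7, 87583981 to 88135063) was the gene called in Hoxa5tdTomato. It stood at 272, 291 and 291 CPM there, at 117, 122 and 121 in the creErt2 references and at 106, 123 and 44.0 in the tdT references. Every Hoxa5tdTomato library had more than 2 times the highest reference value. The change was 1.43 ± 0.33, adjusted p = 0.0367 (edgeR), and this call was lost when any 1 of the 9 libraries compared was left out, with fold changes then between 1.29 and 1.503 and adjusted p values of up to 0.159 over all alternatives. Within set 1 it was 1.25 ± 0.41 with an adjusted p of 0.280 in the fit of 4 groups, 0.00960 without driven replicate 3, and 1.35e-06 with 1.28 ± 0.11 on the libraries of set 1 alone. In the driven libraries Grm5 was at 274, 236 and 63.8 CPM: replicates 1 and 2 lay near the Hoxa5tdTomato values and replicate 3 below 5 of the 6 references. Its change was 0.86 ± 0.34 (adjusted p = 0.203), or 1.28 ± 0.25 (0.00962) without driven replicate 3.

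**Figure D3:**
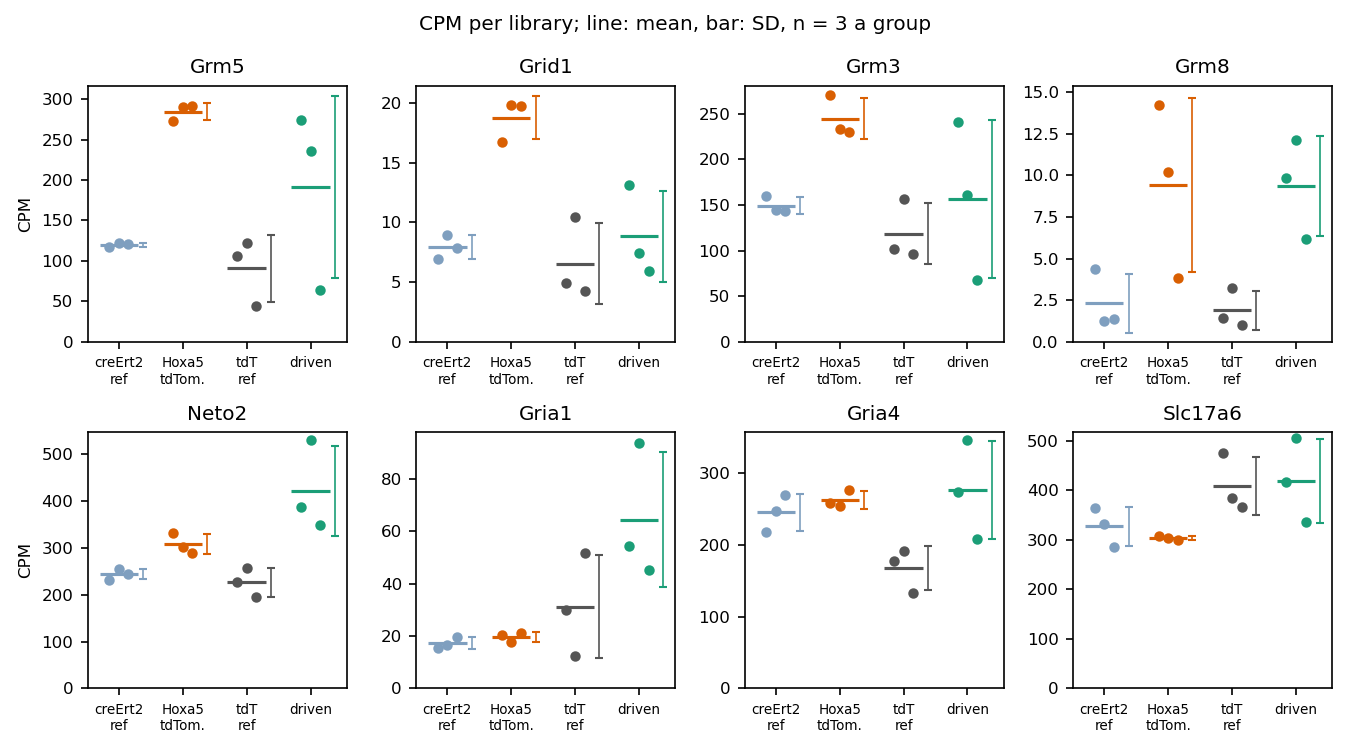
CPM of 8 members in each library, by column-name group, with the mean (line) and SD (bar) of 3 libraries. Grm5 and Grm3 are high in all Hoxa5tdTomato libraries and split among the driven libraries, Grid1 is high in Hoxa5tdTomato, and Neto2 is highest in the driven libraries.

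Genes that act downstream of the group I receptors were followed in a list of 13, of which 12 were tested. In Hoxa5tdTomato 2 of 12 rose and 0 fell against all references, where 1.73% of all genes were called. In the driven group 3 of 12 rose and 0 fell, where 1.84% of all genes were called. The median changes of the list were 0.38 and 0.42. Plcb1, a phospholipase C that these receptors activate, rose in both, from 64.1 ± 12.8 CPM in the references (SD, n = 6) to 115 ± 15.8 and 140.3 ± 28.4 (SD, n = 3 each), by 0.84 ± 0.19 (adjusted p = 0.0360) and 1.13 ± 0.19 (0.00449). It also passed within both sets, by 1.05 ± 0.21 (0.0354) and 0.95 ± 0.21 (0.0435), and without driven replicate 3 in the driven group, by 0.97 ± 0.20 (0.0136). Trpc5, a cation channel opened downstream of phospholipase C, rose from 4.18 ± 1.77 CPM to 19.0 ± 2.37 and 19.8 ± 16.5, with adjusted p values of 0.0424 and 0.0319. It did not pass within sets (0.232 and 0.157); without driven replicate 3 its change in the driven group was 2.72 ± 0.42 (0.00118). Ncdn, neurochondrin, which binds group I receptors, rose in the driven group, from 42.3 ± 10.95 to 89.3 ± 20.02 CPM (1.08 ± 0.23, adjusted p = 0.0184), and within set 2 (1.24 ± 0.26, 0.0401). Without driven replicate 3 it passed within set 2 (1.05 ± 0.26, 0.0349) but not against all references (0.89 ± 0.24, 0.0627). Both comparisons use the same 6 references.

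Group II receptors, Grm2 and Grm3, lower cyclic AMP and often act on nerve endings and, for Grm3, on astrocytes. Grm3 (chromosome 5, 9485236 to 9725352) was at 270.3, 233 and 230.0 CPM in Hoxa5tdTomato, 159.6, 144 and 144 in creErt2 references and 102, 157 and 96.4 in tdT references. All 3 libraries lay above every reference. The change was 0.87 ± 0.27 with an adjusted p of 0.116, which does not pass, and it passed without driven replicate 3 (0.00981) and on set 1 alone (0.74 ± 0.12, 0.000583). Within set 1 in the edgeR fit of 4 groups Grm3 did not pass (0.71 ± 0.32, 0.520). Driven libraries were spread over 241, 160.4 and 68.1 CPM (0.23 ± 0.27, adjusted p = 0.720, or 0.59 ± 0.21, 0.174, without driven replicate 3), from above to below the references. Grm2 was lower, at 5.24, 17.8 and 7.52 CPM in creErt2 references, 20.6, 26.5 and 13.97 in tdT references, 20.99, 12.996 and 17.7 in Hoxa5tdTomato and 32.3, 13.99 and 22.5 in driven libraries, with all groups overlapping. Grm3 thus held most of the group II level in every library, with means of 37.8 RPKM against 4.60 for Grm2 in the references.

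Group III receptors, which mostly sit in the release zone of nerve endings, were low, with summed levels of 1.22 to 5.44 RPKM per library. Grm8 (chromosome 6, 27275121 to 28135146) was at 4.35, 1.24 and 1.36 CPM in creErt2 references, 1.43, 3.22 and 1.03 in tdT references, 14.2, 10.2 and 3.84 in Hoxa5tdTomato and 9.83, 12.1 and 6.17 in the driven libraries. All driven libraries and 2 of 3 Hoxa5tdTomato libraries lay above every reference. Its changes of 2.16 ± 0.60 and 2.15 ± 0.59 were the largest positive ones of any member that reached 1 CPM in all libraries, but neither passed over all genes (adjusted p = 0.0787 and 0.0733). Without driven replicate 3 both passed, at 0.0310 and 0.0441 (2.38 ± 0.60 in the driven group), and DESeq2 also called both. Grm7, a receptor found at many active zones, was at 5.15, 8.44 and 6.34 CPM in creErt2 references, 6.81, 19.5 and 1.89 in tdT references, 14.8, 10.4 and 13.8 in Hoxa5tdTomato and 8.52, 5.22 and 2.11 in driven libraries. Hoxa5tdTomato lay above the creErt2 references and overlapped with the tdT references through a single library. Grm4, better known from parallel fibres of the cerebellum, ranged from 0 to 14.2 CPM with all groups overlapping (adjusted p = 0.854 and 0.501).

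The upstream sequences of Neto2, the member with the most stable call, and of Grm8, whose changes of 2.16 and 2.15 did not pass, are printed here because the labels contrast levels of a homeobox gene, whose protein family binds sites with a TAAT core. Each is the 250 bases before an annotated start in RefSeq (build GRCm38.p6), 5′ to 3′ on the gene's strand, with TAAT on either strand (read as TAAT or ATTA, overlaps allowed) in capitals.
Neto2 start at chr8:85691010-85691259, minus strand: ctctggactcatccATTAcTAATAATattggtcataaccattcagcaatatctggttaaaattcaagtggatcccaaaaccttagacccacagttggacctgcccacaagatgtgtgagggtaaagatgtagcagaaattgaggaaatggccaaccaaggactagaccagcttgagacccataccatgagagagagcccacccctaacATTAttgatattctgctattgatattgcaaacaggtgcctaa
Neto2 start at chr8:85700925-85701174, minus strand: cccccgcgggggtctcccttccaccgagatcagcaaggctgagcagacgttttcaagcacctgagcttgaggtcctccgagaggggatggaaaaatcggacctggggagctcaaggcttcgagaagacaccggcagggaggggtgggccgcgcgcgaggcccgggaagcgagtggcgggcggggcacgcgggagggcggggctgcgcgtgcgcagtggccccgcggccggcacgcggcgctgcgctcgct
Grm8 first start at chr6:28135147-28135396, minus strand: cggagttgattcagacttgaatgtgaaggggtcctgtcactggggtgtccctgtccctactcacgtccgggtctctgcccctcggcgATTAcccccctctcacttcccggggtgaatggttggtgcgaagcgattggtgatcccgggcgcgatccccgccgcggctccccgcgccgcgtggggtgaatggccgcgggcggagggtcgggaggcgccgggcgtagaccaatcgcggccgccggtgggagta
The first Neto2 window holds 4 such matches, at 236, 231, 228 and 42 bases before the start, and has 42.4% G and C. The second holds 0 and has 72.0% G and C, and the printed Grm8 window holds 1, at 163 bases before the start. Of 2 further Grm8 starts in RefSeq, not printed, 1 window holds 1 match and the other 0. Matches of these 4 letters are common: 54.9% of all 32851 windows of 250 bases hold at least 1, and 9 of the 27 windows found for 21 members do (33.3%). The median G and C content was 62.0% in members' windows and 52.4% in all. The longer motif TGATNNAT, searched on both strands, was in 7.68% of all windows and in 1 of the 27, a second start of Slc17a6. These counts describe letters in a window and say nothing of a factor's binding.

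Neto2 (chromosome 8, 85636718 to 85700952) encodes an auxiliary subunit that slows kainate receptor gating. In CPM it was at 387, 530.1 and 349 in the driven libraries, 228, 258 and 196 in tdT references, 232, 254 and 244 in creErt2 references and 331, 303 and 289 in Hoxa5tdTomato. The driven libraries were highest, above all other 9 libraries, and Hoxa5tdTomato lay between them and the references with no overlap on either side. Neto2 rose by 0.84 ± 0.15 in the driven group (adjusted p = 0.00487), and all 20 alternative analyses called it, at adjusted p values of 1.36e-05 to 0.0314; without driven replicate 3 the rise was 0.96 ± 0.15 (0.00118). Within set 2 the rise was 0.89 ± 0.16 (0.0134), called in 17 of 20; it was lost without tdT reference replicate 1 or 3 and on set 2 alone, with adjusted p values of up to 0.254. For Hoxa5tdTomato the change was 0.39 ± 0.15 with an adjusted p of 0.212, or 0.37 ± 0.11 (0.0415) on set 1 alone. Within set 1 in the edgeR fit of 4 groups that change was 0.34 ± 0.16 (0.582). The difference between both groups, -0.45 ± 0.17, had an adjusted p of 0.133 and was called in 0 of 20 alternatives.

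Neto1, the related subunit of highest level, was at 459.8, 555 and 445 CPM in creErt2 references, 525, 828.6 and 487 in tdT references, 428, 367 and 414 in Hoxa5tdTomato and 490.1, 566 and 332 in driven libraries. Hoxa5tdTomato lay below all references, by -0.45 ± 0.20 with an adjusted p of 0.305 that does not pass, and the driven libraries overlapped with them. Shisa9 and Shisa6 encode AMPA receptor partners that shape desensitization. Shisa9 was at 246, 236 and 224 CPM in Hoxa5tdTomato against 125, 152 and 135 in creErt2 references, with no overlap, while tdT references were at 117, 239.8 and 127 and driven libraries at 330.2, 251 and 143. On set 1 alone Shisa9 (0.80 ± 0.12, adjusted p = 0.000313) and Shisa6 (0.70 ± 0.16, 0.0102) passed, and neither passed against all references with all libraries (0.184 and 0.715). Within set 1 in the edgeR fit of 4 groups neither passed (0.347 and 0.438). Without driven replicate 3 both passed in the driven group, at 0.96 ± 0.22 (0.0228) and 0.98 ± 0.23 (0.0294). Cnih2 and Cnih3, the cornichons that help AMPA receptors to the surface, did not pass in any of the 7 comparisons, with means of 49.4 and 5.82 CPM in the references.

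AMPA receptors carry fast excitation, and the subunit Gria2, when edited, keeps calcium out of the channel. Gria2 (chromosome 3, 80681450 to 80804227) was the steadiest of the abundant members, at 879, 838 and 969.5 CPM in creErt2 references, 816, 852 and 871 in tdT references, 795, 851 and 864 in Hoxa5tdTomato and 887, 982 and 861 in driven libraries. No group stood apart, and its changes were -0.06 ± 0.11 and 0.06 ± 0.11 (0.10 ± 0.12 without driven replicate 3). Gria1, a subunit of many plastic synapses, was at 15.5, 16.6 and 19.7 CPM in creErt2 references, 29.9, 12.2 and 51.5 in tdT references, 20.2, 17.6 and 21.2 in Hoxa5tdTomato and 54.3, 93.6 and 45.1 in driven libraries. Driven libraries were above all Hoxa5tdTomato libraries and all but 1 reference. Its change was 1.40 ± 0.38 in the driven group (adjusted p = 0.0679) and 1.60 ± 0.39 (0.0385) without driven replicate 3, and -1.71 ± 0.47 for Hoxa5tdTomato against driven (0.0515). Within set 2 the change of Gria1 in the driven group was 1.04 ± 0.42 (edgeR adjusted p = 0.290). Gria4, a subunit of fast hindbrain synapses, was at 218, 248 and 269 CPM in creErt2 references, 177, 192 and 133 in tdT references, 258, 254 and 276 in Hoxa5tdTomato and 274, 346 and 209 in driven libraries. Both kinds of reference did not overlap for Gria4, with creErt2 references higher, so that the driven group stood above its own set (0.72 ± 0.19, adjusted p = 0.0885, and 0.89 ± 0.16, 0.00520, without driven replicate 3) and by less above all references (0.42 ± 0.20, 0.296, or 0.59 ± 0.20, 0.166, without driven replicate 3). Gria3 did not pass in any comparison.

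Expressed per length, Gria2 held 62.5% to 69.1% of the RPKM of the 4 AMPA genes in the references, 58.0%, 62.0% and 60.4% in Hoxa5tdTomato and 57.8%, 54.7% and 63.3% in the driven libraries. All Hoxa5tdTomato libraries were below every reference, and 2 of 3 driven libraries were. The differences of -4.58 and -6.14 percentage points each had an exact two-sided permutation p of 0.0238, which is 0.143 after Benjamini-Hochberg adjustment over the 12 tests made on shares and does not pass. Gria1 made up 3.21% ± 2.11 of the total in the references (SD, n = 6) and 7.04% ± 1.81 in the driven libraries (SD, n = 3), and Gria4 25.8% ± 4.85 in the references and 32.1% ± 0.728 in Hoxa5tdTomato. By kind of reference, Gria4 held 29.5% ± 2.06 in creErt2 and 22.1% ± 3.69 in tdT references (SD, n = 3 each). Gria1 held 2.14% ± 0.138 in creErt2 and 4.29% ± 2.76 in tdT references.

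**Figure D4:**
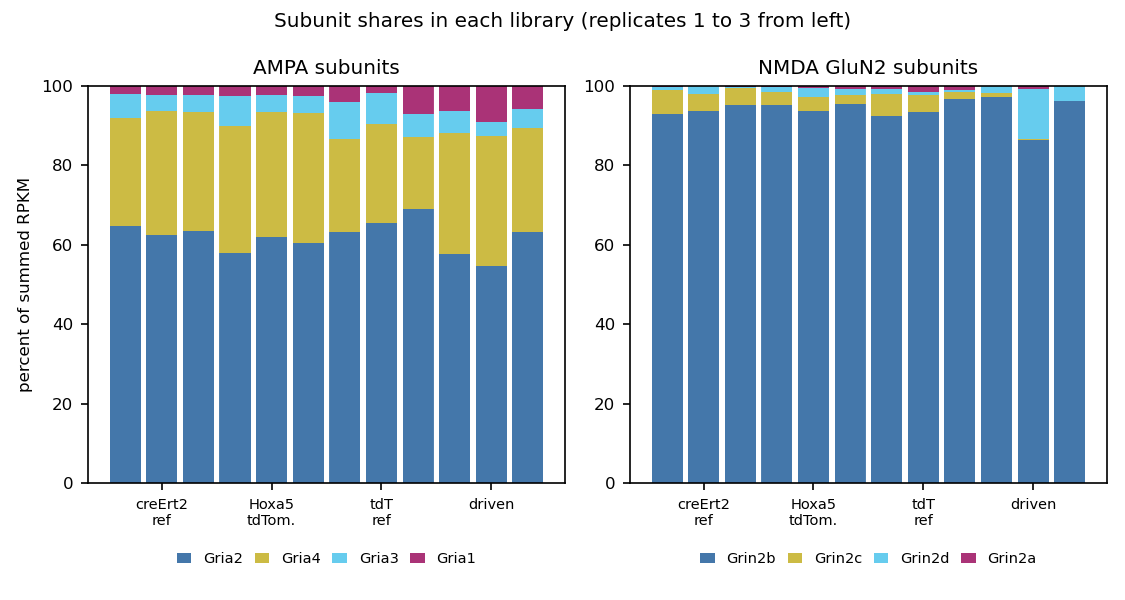
Percent of summed RPKM held by each AMPA subunit and each GluN2 subunit gene of NMDA receptors, as stacked bars for each of the 12 libraries. Gria2 and Grin2b hold most of their families in every library, with Gria2 between 54.7% and 69.1%.

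NMDA receptors combine the obligatory subunit gene Grin1 with members of the Grin2 genes, of which Grin2b and Grin2d are the early ones and Grin2a and Grin2c those that rise with maturation in many brain regions. Grin2b was at 218, 321 and 368 CPM in creErt2 references, 159, 206 and 207 in tdT references, 348, 336 and 330.4 in Hoxa5tdTomato and 284, 213 and 168 in driven libraries. Both kinds of reference stood apart, so that Hoxa5tdTomato, above the tdT references, overlapped with those of its own set (0.16 ± 0.21, adjusted p = 0.944). Grin2b held 86.5% to 97.2% of the RPKM of the 4 Grin2 genes per library, with means of 94.1% in the references, 94.7% in Hoxa5tdTomato and 93.3% in driven libraries. Grin2a was at 0 to 1.95 CPM on 175 counts in all. Grin2c was at 7.83, 8.55 and 5.21 CPM in Hoxa5tdTomato and 2.44 to 10.7 in the references, and at 2.19, 0.180 and 0 in driven libraries, all below every reference. That change of -3.21 ± 1.02 rests on 51 counts in the driven group and does not pass (adjusted p = 0.119, or -2.63 ± 0.83, 0.129, without driven replicate 3), though DESeq2 called it, as did edgeR without driven replicate 1 (-6.21). Grin2d, at 0.634 to 3.91 CPM in the references, was at 2.75, 17.99 and 3.86 CPM in driven libraries, with the highest value from replicate 2 alone. Its change of 2.48 ± 0.74 (adjusted p = 0.0982) was 1.17 (0.456) without driven replicate 2 and 2.82 ± 0.74 (0.0553) without driven replicate 3, and was called by DESeq2 and by edgeR without driven replicate 1. Grin3a, a subunit that lowers calcium entry in young synapses, was at 49.5, 40.3 and 52.1 CPM in Hoxa5tdTomato, 22.2, 29.9 and 30.8 in creErt2 references, 27.1, 51.2 and 23.1 in tdT references and 50.7, 57.6 and 9.68 in driven libraries. Hoxa5tdTomato stood above its own references, with adjusted p = 0.736 in the fit of 4 groups and 0.0316 on set 1 alone (0.80 ± 0.22). Grin1 and Grin3b did not pass in any of the 7 comparisons.

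Kainate receptors modulate release and excitability, and their gene of highest level was Grik3. It was at 310.1, 459 and 587 CPM in creErt2 references, 424, 438 and 614 in tdT references, 277, 326 and 302 in Hoxa5tdTomato and 427, 346 and 324 in driven libraries. Hoxa5tdTomato was below 5 of 6 references and overlapped with the sixth. Its change of -0.64 ± 0.19 did not pass (adjusted p = 0.0953), but did without driven replicate 3 (0.0478) and on set 1 alone (-0.55 ± 0.16, 0.0418). Within set 1 in the edgeR fit of 4 groups Grik3 did not pass (-0.58 ± 0.21, 0.333). Grik2 was at 170.3, 157 and 184 CPM in Hoxa5tdTomato, 111, 149.8 and 114 in creErt2 references, 99.9, 107 and 79.5 in tdT references and 121, 175 and 90.7 in driven libraries. Here Hoxa5tdTomato lay above all references, by 0.63 ± 0.21 (adjusted p = 0.139, and 0.0458 on set 1 alone, 0.48 ± 0.14). Within set 1 in the edgeR fit of 4 groups Grik2 did not pass (0.45 ± 0.22, 0.597). Grik5, a subunit that needs the others to form a channel, was among the least variable members, from 76.1 to 95.8 CPM. Grik4, a partner of the same kind, was at 1.35, 0.180 and 0.1003 CPM in driven libraries and 0.888 to 7.43 in the references (-2.71 ± 1.04, adjusted p = 0.190), on 35 counts in the driven group. Without driven replicate 3 that change was -2.23 ± 1.04 (0.332), and DESeq2 called it, as did edgeR without driven replicate 1 (-4.61). Grik1 did not pass in any comparison.

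Delta receptors bind cerebellin-type proteins across the synapse. Grid1 was at 16.7, 19.9 and 19.8 CPM in Hoxa5tdTomato, 6.93, 8.97 and 7.88 in creErt2 references, 4.92, 10.5 and 4.24 in tdT references and 13.2, 7.42 and 5.92 in driven libraries. Hoxa5tdTomato was above all other libraries. The change of 1.38 ± 0.41 against all references did not pass (adjusted p = 0.0976), but passed without driven replicate 3 (0.0331), on set 1 alone (1.27 ± 0.33, 0.0221) and in DESeq2. Within set 1 in the edgeR fit of 4 groups Grid1 did not pass (1.24 ± 0.50, 0.430). Of the ligands of delta and kainate receptors 6 of 8 genes were tested. In Hoxa5tdTomato 0 rose and 1 fell, where 1.73% of all genes were called. The 1 was C1ql3, a secreted protein of mossy fibre synapses in other brain regions. C1ql3 stood at 19.2 ± 1.40 CPM against 84.99 ± 48.02 (SD, n = 3 and 6, edgeR adjusted p = 0.0350). Against the creErt2 references alone it did not pass (-1.29 ± 0.41, 0.256), and the list summed to 114 to 146 CPM in these and 177 to 236 in tdT references. In the driven group 0 of 6 passed, and the medians of the list were -0.72 and -0.25.

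Other partners of these receptors were followed in further lists. Of 27 tested genes of excitatory scaffolds, 1 rose and 0 fell in Hoxa5tdTomato, where 1.73% of all genes were called. In the driven group 2 rose and 0 fell, where 1.84% of all genes were called. The list medians were 0.13 in both. Lin7a, an adaptor of the postsynaptic scaffold, rose in both groups, from 56.5 ± 9.55 CPM in the references (SD, n = 6) to 113 ± 14.4 and 117 ± 26.9 (SD, n = 3 each), with adjusted p values of 0.0141 and 0.00840. It passed within set 1 (0.0384) but not within set 2 (0.0616), and its driven change of 1.05 was 1.20 ± 0.19 (0.00190) without driven replicate 3. Dlg2, a scaffold protein that anchors NMDA receptors, rose in the driven group from 361 ± 29.8 to 866 ± 285 CPM (1.26 ± 0.16, adjusted p = 0.000490) and within set 2 (1.17 ± 0.19, 0.00586), and by 1.51 ± 0.12 (1.06e-06) without driven replicate 3. No gene passed against the references among 23 tested partners of AMPA and NMDA receptors such as the TARP genes, among 15 genes of glutamate uptake and synthesis, or among the 3 genes of the RNA editing enzyme family, in either group. Their list medians were 0.33, 0.16 and -0.19 in Hoxa5tdTomato and 0.53, 0.18 and 0.46 in the driven group.

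Markers of other cells and of maturation were compared between the same groups. Against all references 1.73% of all genes were called in Hoxa5tdTomato and 1.84% in the driven group. In Hoxa5tdTomato the markers of astrocytes and radial glia summed to 1040 to 1460 CPM over 10 genes, against 663 to 1114 in the references and 1072 to 1391 in driven libraries; 1 of 9 tested markers, Ptprz1, rose in each group and did not pass within sets, while Gfap had no count in Hoxa5tdTomato. The median change of that list was 0.40 in Hoxa5tdTomato and -0.56 in the driven group. Vascular and meningeal markers were higher in Hoxa5tdTomato. The 9 endothelial markers summed to 82.4 to 164 CPM there, against 0.749 to 21.9 in the references, with 1 of 8 tested genes called. The 8 mural markers summed to 105 to 225 against 2.07 to 26.1, with 3 of 7 called. The 7 meningeal markers summed to 39.0 to 79.3 against 1.46 to 13.9, with 0 of 4 called. Within set 1 no endothelial, mural or meningeal marker was called in the edgeR fit of 4 groups, where 0.557% of all genes were. Driven replicate 2 also lay above every reference in these lists, at 35.9, 63.5 and 36.0 CPM. Driven replicates 1 and 3 did not. Markers of immature neurons summed to 8126 to 8547 CPM in Hoxa5tdTomato and 10215 to 13284 in the references (3 of 8 lower), and those of the pontine and rhombic lip lineage to 3636 to 4173 against 5780 to 7915 (2 of 12 lower, Nfib and Nhlh1). Within set 1 the calls were 1 of 8 and 1 of 12, both lower. In the driven group against all references they were also 1 of 8 and 1 of 12, both lower. In the driven group 3 of 13 tested markers of maturing neurons rose (Snap25, Syn1 and Syp), and that list summed to 2960 to 3276 CPM against 1888 to 2139 in creErt2 and 2523 to 2832 in tdT references. Against tdT references alone 0 of 13 rose and 1, Nefl, fell, and 2 of 13 were lower in creErt2 than in tdT references. Of all genes 0.862% and 1.34% were called in these comparisons. Without driven replicate 3, Syn1 passed against all references (0.0228) and Snap25 and Syp did not (0.112 and 0.0581). GABAergic and glycinergic markers summed to 209 to 282 CPM in Hoxa5tdTomato, 219.6 to 472 in driven libraries and 195 to 353 in the references, with 0 of 8 called in either group. These sums came mostly from Gad2. The median change of the 8 tested genes was 0.68 in Hoxa5tdTomato and -2.41 in the driven group. The part of these cells in the values of Grm5, Grm3, Grid1 and Neto2 was not tested.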

How the data were processed

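RNA sequencing of 12 libraries was analysed from the table of raw counts per gene that the authors deposited, with 23079 genes by Entrez number and a length in bases for each. Per the submitters' processing notes the build was mm10 and base calling used bcl2fastq 1.8.4; aligner, counter, annotation and strand were not given in the sources used here. Counts were not normalized by the authors. Libraries were amplified and carry no molecular identifiers, so that limits of 3 counts cover counting error only.

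Genes were filtered with filterByExpr (minimum count 10), scaled by TMM and tested by edgeR 4.0.16 (quasi-likelihood F test, R 4.3.3) over all 12 libraries, as 3 label groups or 4 column-name groups, with Benjamini-Hochberg adjustment over 14732 genes and a threshold of 0.05. CPM uses the scaled library size, and RPKM divides it by the deposited length. DESeq2 1.42.0 was an alternative, and the fit was tested on simulated data. Other alternatives were the scaling, the filter, thinned counts, a replicate block, only the compared groups and each library left out. Subunit shares were compared by exact permutation over libraries. Reference columns carry numbers 1 to 3 within each kind, which match no number of the labels.

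Positions and promoters came from RefSeq (GRCm38.p6). Values per library are given for members that passed in any comparison, the vesicular transporters, the genes of highest mean RPKM in each family, the numerators of shares and the 6 members of smallest adjusted p; Shisa9, Grin2c, Grin2d and Grik4 were added after their values were seen. The members, lists and rules were chosen with earlier results of these data known. A further 2 genes that meet the rule by symbol, and 1 subunit share, are not reported here, and counts of members leave them out.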

Additional observations from a re-analysis of the deposited data

Results flagged for a closer look

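Of 35 sets of values over the 6 references, 32 member levels and 3 shares, 8 had a library whose gap to the nearest other, relative to the whole range, was above the Dixon 95% limit; chance gives about 1 in 20. tdT reference replicate 2 was the highest of the 6 for Neto1 (828.6 CPM, the others 445 to 555), Shisa9 (239.8, the others 117 to 152), Grin3a (51.2, the others 22.2 to 30.8) and Grm7 (19.5, the others 1.89 to 8.44). tdT reference replicate 3 was the lowest for Grm5, at 44.0 CPM, with the others at 106 to 123. Among creErt2 references, replicate 1 was the highest for Grin1 (95.1 CPM, the others 61.1 to 72.0), replicate 3 for Grin3b (6.16, the others 2.40 to 3.71) and replicate 2 for Grin2d (3.91, the others 0.634 to 1.32).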

How the results depend on the processing

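The count of members called depended on the analysis, and no member with an unadjusted p under 0.05 changed sign in any. For Hoxa5tdTomato against all references (1 called) it was 3 with DESeq2, 5 with only the compared groups and 0 to 6 with 1 library left out, where 1.73% of all genes were called, and 3.62%, 5.27% and 0.226% to 4.86%. For driven against all references (1 called) it was 2 without the filter, 6 with DESeq2 and 1 to 6 with 1 library left out (1.84% of all genes, and 1.76%, 5.29% and 1.27% to 3.84%). Hoxa5tdTomato against driven (0 called) gave 1 without the filter, 3 with DESeq2 and 0 to 4 with 1 library left out (3.35% of all genes, and 2.90%, 8.71% and 0% to 7.73%). Within set 1 (0 called) it was 9 with only the compared groups and 0 to 2 with 1 library left out (0.557% of all genes, and 7.19% and 0.123% to 2.43%); within set 2 (1 called) 4 with DESeq2, 0 with only the compared groups and 0 to 3 with 1 library left out (0.862% of all genes, and 3.72%, 0.0746% and 0.347% to 2.43%). Both kinds of reference (0 called) gave 3 with only the compared groups and 0 to 3 with 1 library left out (1.34% of all genes, and 5.67% and 0.254% to 5.23%). Among the fits with 1 library left out, the highest counts of members came without driven replicate 3. The exception was Hoxa5tdTomato against driven, with its highest count without driven replicate 1. Among these fits the highest shares of all genes came together with the highest counts, except for driven against all references. There the 6 members were called without driven replicate 3, where 2.24% of all genes were. The 3.84% came without driven replicate 1, where 4 members were called. The cause was not tested. With the replicate block the counts were 1, 1 and 0 against all references and between the groups (1.28%, 1.28% and 0.774% of all genes). Within sets they were 0 and 1 (0.536% and 0.604%), and no call of a member changed. Deviations of same-numbered libraries from their group means had r from -0.03 to 0.05 over 12 pairs. Between Hoxa5tdTomato and creErt2 references the same number gave the highest r for each of the 3 numbers (0.0152 to 0.0264), which did not hold throughout in the other combinations. Values this small do not decide whether same-numbered libraries share a litter or a batch. Low counts limit Slc17a7, Slc17a8, Grin2a, Grin2c, Grik4 and Grm6.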
